A study of Mus musculus with 4 samples.

Results

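The chromosomal windows around 4 mouse genes that the microRNA let-7 is known to repress, Hmga2, Igf2bp1, Igf2bp2 and Igf2bp3, were examined for peaks of the nuclear receptor NR6A1. A peak was counted when its midpoint lay inside a fixed window of build mm9. The windows were on chromosome 10 at 119750000 to 119960000 for Hmga2, on chromosome 11 at 95780000 to 95900000 for Igf2bp1, on chromosome 16 at 22020000 to 22200000 for Igf2bp2 and on chromosome 6 at 49000000 to 49200000 for Igf2bp3. They held 17 of 21507 peaks of NR6A1 replicate 1 and 14 of 16160 peaks of NR6A1 replicate 2. Merged over both lists, these were 22 of 28444 regions.

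The study mapped NR6A1 by chromatin immunoprecipitation and sequencing (ChIP-seq) in immortalized monoclonal mesenchymal stem cells from C57BL/6 mice with genotype Dicer f/f. In 2 libraries the cells expressed Flag-HA-NR6A1 from a retrovirus, and in the other 2 they carried the vector. All 4 were precipitated with an antibody to HA, and in every group the floxed Dicer alleles are described as wild type. Because the tagged receptor was introduced by a virus and the cells were monoclonal, the peaks describe an expressed transgene in a clonal line. Peak lists of the 2 NR6A1 replicates were used, and values of the vector libraries were not analysed here. Whether the HA antibody also gives signal at these positions in cells with the vector was therefore not tested. Each peak has the authors' score, which is 200 or more in both lists and which was taken as higher for stronger evidence of a peak. It ranks peaks within a list, and read depth is unknown. Nothing in the labels says that the replicates came from separate infections, so the spread between them may be technical.

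The let-7 microRNAs pair through their seed with sites in the 3′ ends of messenger RNAs and lower the output of those messengers. They accumulate late in development. Many of their best known targets are oncofetal genes, which are active in the embryo, quiet in most adult tissues and active again in many tumours. Expression of the 4 genes was not analysed here. Hmga2 encodes an architectural chromatin protein that binds AT-rich DNA through AT-hooks. Igf2bp1, Igf2bp2 and Igf2bp3 encode RNA-binding proteins with RRM and KH domains that control the stability, transport and translation of messengers such as that of Igf2. NR6A1, also called germ cell nuclear factor, is an orphan nuclear receptor that represses Pou5f1 as embryonic stem cells differentiate and binds repeats of the half-site AGGTCA. Per the series title, its own gene is another let-7 target.

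The mature let-7 sequences are shown because they define the group of genes. In RefSeq (GRCm38.p6), 10 entries were named as 5p arms of let-7, and they gave 8 distinct microRNAs. Entries under other names were not counted, so 10 need not be the number of gene copies. All 8 have the same seed, bases 2 to 8, given in capitals:
mmu-let-7a-5p: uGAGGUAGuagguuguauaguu
mmu-let-7b-5p: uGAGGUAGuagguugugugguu
mmu-let-7c-5p: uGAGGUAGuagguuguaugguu
mmu-let-7d-5p: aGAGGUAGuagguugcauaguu
mmu-let-7e-5p: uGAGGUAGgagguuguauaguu
mmu-let-7f-5p: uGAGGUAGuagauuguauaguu
mmu-let-7g-5p: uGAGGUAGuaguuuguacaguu
mmu-let-7i-5p: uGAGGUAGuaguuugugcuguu
They differ outside the seed, and let-7d also differs at the first base. No genome of build mm9 was used, so the bases under the peaks are not shown, and peaks are placed by window and not by exon, intron or start site. That each window encloses its gene was likewise taken from the choice of windows and not checked here. In the gene order of GRCm38, the nearest protein-coding neighbours are Llph and Msrb3 for Hmga2, B4galnt2 and Gip for Igf2bp1, Senp2 and Tra2b for Igf2bp2, and Malsu1 and Tra2a for Igf2bp3. A window may reach parts of a neighbour, and no peak was assigned to either gene.

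The loci differed in how many NR6A1 peaks they held. The Hmga2 window had 9 peaks in replicate 1 and 8 in replicate 2, the Igf2bp2 window 4 and 3, and the Igf2bp3 window 4 and 2. The Igf2bp1 window had none in replicate 1 and 1 in replicate 2. Hmga2 was also the window with the highest scores. All peaks of 1000 or more lay there, 3 in replicate 1 and 2 in replicate 2, beside 15.9% and 14.0% of the whole lists. Over the 4 windows, 3 of 17 and 2 of 14 peaks reached 1000, which is near the share in the whole lists.

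**Figure D1:**
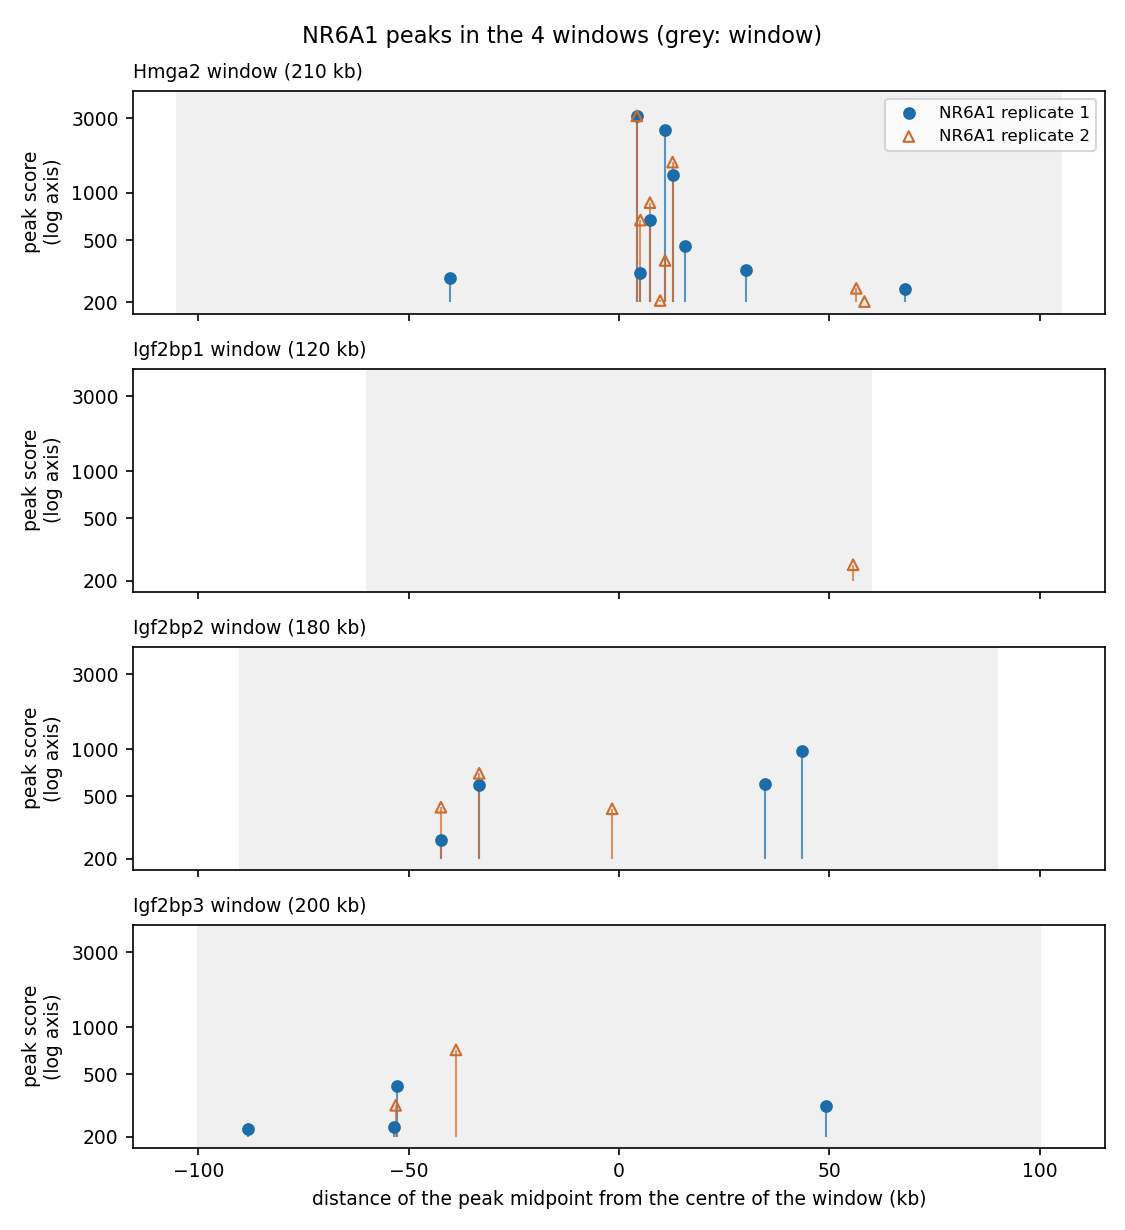
NR6A1 peaks in the windows of Hmga2, Igf2bp1, Igf2bp2 and Igf2bp3, by distance of the peak midpoint from the window centre (kb) and by the authors' score (log axis, stems drawn from 200). Filled circles are replicate 1 and open triangles replicate 2. The Hmga2 window holds a tight group reaching 3100 in both replicates, and the Igf2bp1 window a single peak of replicate 2 near its edge.

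Peak numbers were set beside those of all windows of the same length laid end to end along the chromosomes except Y. Peak density in the Hmga2 window was 42.9 per Mb for replicate 1 and 38.1 per Mb for replicate 2, against 8.10 and 6.08 per Mb over the whole genome. That was 5.29-fold and 6.26-fold the genome value, and 3.35-fold and 4.53-fold that of chromosome 10 alone. Of 12558 windows of 210 kb, 3.22% held at least as many peaks in replicate 1 and 2.16% in replicate 2. Many of these windows were empty, 51.8% in replicate 1 and 55.5% in replicate 2. The Hmga2 peaks were not spread over the window. In 1 run of 9.28 kb, described below, lay 5 of the 9 replicate 1 peaks and 6 of the 8 replicate 2 peaks. The Igf2bp2 window was less dense, at 2.74-fold the genome value in each replicate, and 15.6% and 16.2% of 180 kb windows held as many peaks. For Igf2bp3 the ratios were 2.47-fold and 1.64-fold, and 17.4% and 28.0% of 200 kb windows held as many. For Igf2bp1, 61.9% of 120 kb windows had no peak in replicate 1, as the gene's window did, and 33.6% held 1 or more in replicate 2. These shares are descriptions. The windows were drawn around known genes, while the windows laid end to end also cover stretches where few reads can align.

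**Figure D2:**
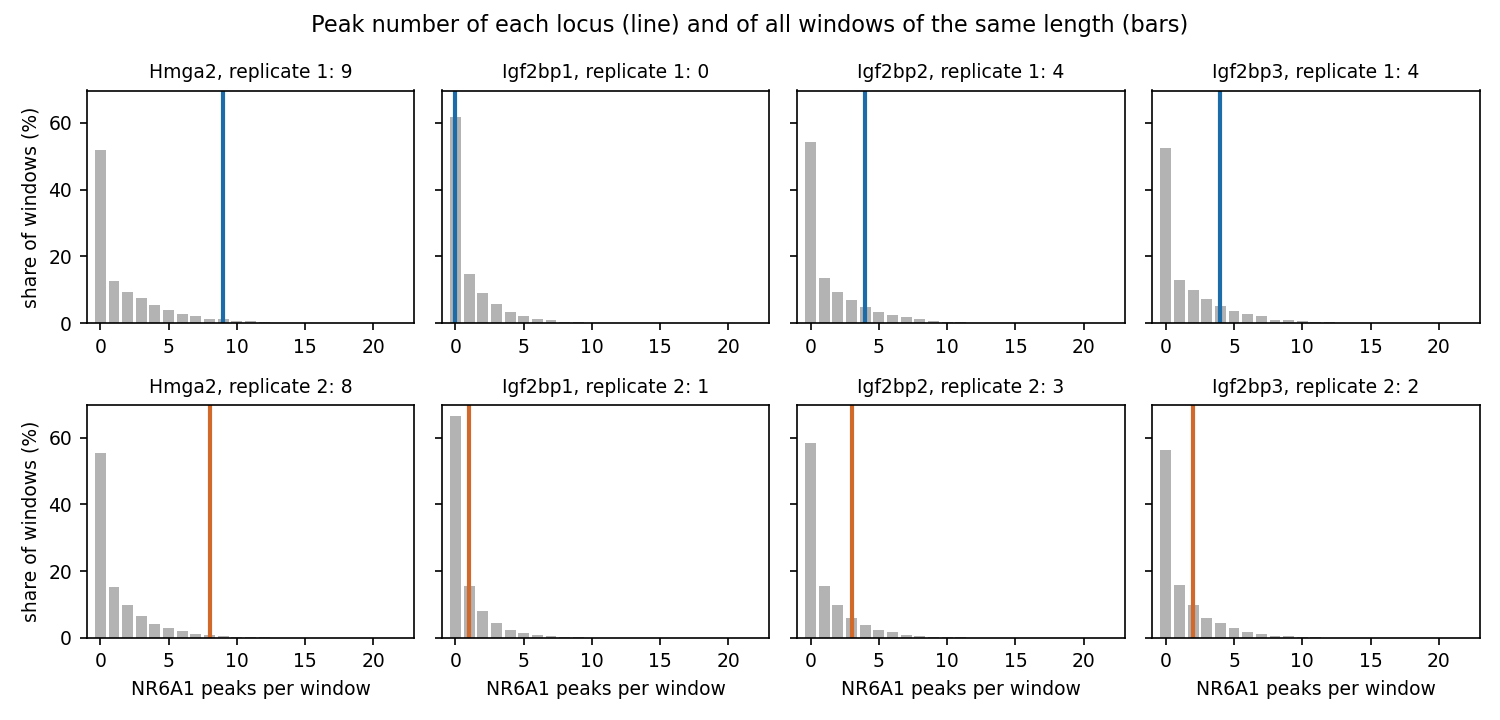
Share of all end-to-end windows of the same length (%, grey bars) by their number of NR6A1 peaks, with the gene's own number as a coloured line; upper panels are replicate 1 and lower panels replicate 2. The Hmga2 line, at 9 and 8 peaks, stands in the thin upper end of the bars, whereas the lines at 4 and 3 for Igf2bp2 and at 0 and 1 for Igf2bp1 stand among more common values.

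At Hmga2, 5 of the 12 regions were found in both replicates, beside 31.7% of all 28444 regions. These 5 lay close together on chromosome 10 at 119858837 to 119868111. They spanned 9.28 kb, or 4.42% of the window, and held 5 peaks of replicate 1 and 6 of replicate 2. Shared regions with gaps of at most 10 kb formed 7357 runs over the genome, single regions included. Of these, 26 had 5 or more shared regions, and 3 of the 26 were as short as the run at Hmga2 or shorter, counting that run itself. The replicates placed the 5 peaks almost at the same bases, with midpoints 0 to 11.0 bp apart and a median of 5.00 bp, against a median of 37.5 bp over all 9223 overlapping pairs.

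The first peak of the run, at 119858845 to 119859648 in replicate 1 and 119858837 to 119859656 in replicate 2, had a score of 3100 in each. A score of exactly 3100 was tied among 239 peaks of replicate 1 and 187 of replicate 2, and 26 and 24 peaks were above it. Both lists therefore put this peak among the 1.23% and 1.31% that reached 3100, and 53 of the 9223 pairs reached it in both. What the tied value stands for is not given in the labels or lists, so equal scores of 3100 need not mean equal strength. A second peak began 176 bp after it in replicate 1 and 93 bp after it in replicate 2. Its scores were lower, 308 in replicate 1 and 671 in replicate 2 over 119859825 to 119860390 of replicate 1. The third, at 119862092 to 119862644, scored 670.2 in replicate 1 and 867 in replicate 2.

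The fourth shared peak was the one on which the replicates differed most. At 119865378 to 119866571 it scored 2532 in replicate 1, within the upper part of that list, where 97.8% of peaks scored the same or less. Its replicate 2 partner, at 119865425 to 119866512, scored 371, a value that 46.6% of that list did not exceed. The ratio of replicate 1 over replicate 2 was 6.83, and 2.08% of all pairs had scores as far apart in either direction, with no correction for the depth of each library. Yet the peaks covered nearly the same bases, 1194 bp wide in replicate 1 and 1088 bp in replicate 2 with 1088 bp in common. The fifth peak, at 119867395 to 119868111, scored 1302 in replicate 1 and 1571 in replicate 2, close to each other and high in both lists.

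**Figure D3:**
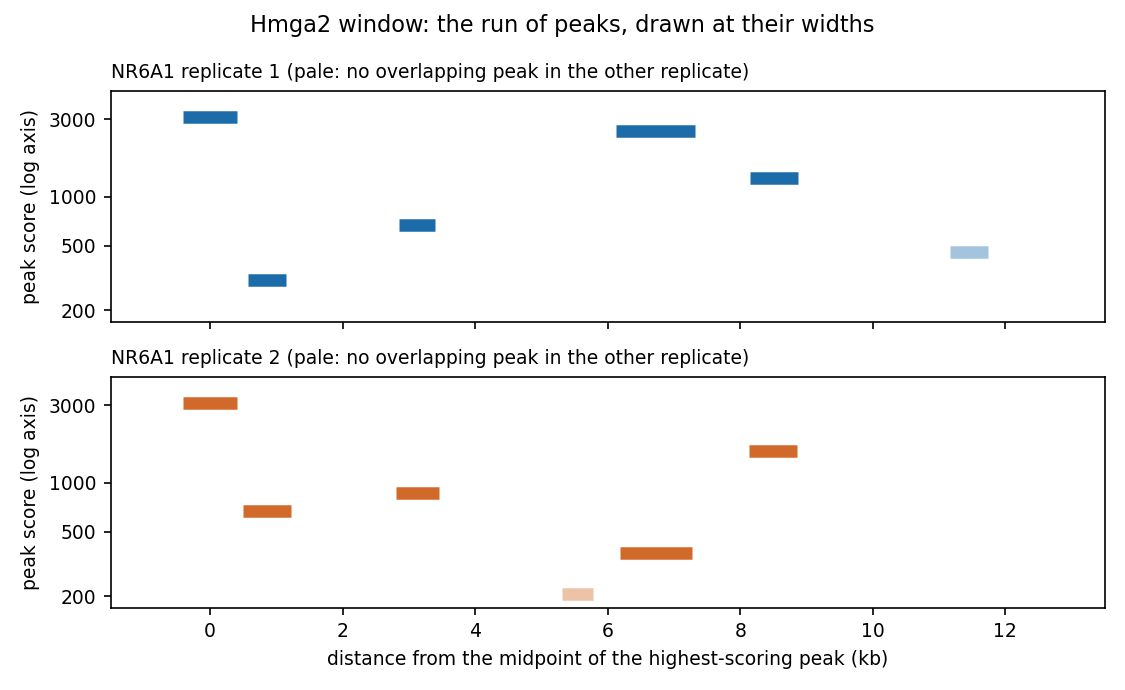
The run of NR6A1 peaks in the Hmga2 window, with distance from the midpoint of its highest-scoring peak in replicate 1 (kb) and the authors' score (log axis). Each bar is drawn from the start to the end of a peak, pale where the other replicate has no overlapping peak. The 5 shared peaks line up, and the first is tied at 3100 in both lists. The scores of the others differ by at most 2.18-fold, except for the one near 7 kb, at 2532 in replicate 1 and 371 in replicate 2.

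The other peaks of the Hmga2 window were in 1 list each and had scores below 500. Replicate 1 alone had 4, with scores of 245 to 458, and the highest of them lay at 119870410 to 119870978, 2.94 kb from the midpoint of the last shared peak. Replicate 2 alone had 3, with scores of 203 to 246, of which 1 lay inside the run at 119864558 to 119865031 and the others at 119911125 to 119911719 and 119913052 to 119913688. Such peaks were common in the whole lists. Of replicate 1 peaks, 54.5% of those at 245 or more and 46.8% of those at 458 or more had no partner. In replicate 2 it was 43.8% of those at 203 or more and 39.4% of those at 246 or more. Reads per peak are not part of the lists, so for a peak found once, binding just below the minimum of the other list and no binding cannot be told apart.

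The Igf2bp2 window had 2 regions in both replicates among its 5 regions, beside 31.7% of all regions. At 22067386 to 22067858 on chromosome 16 the score was 264 in replicate 1 and 426 in replicate 2. At 22076468 to 22077087 it was 590 in replicate 1 and 701 in replicate 2, with midpoints 1.5 bp apart. The midpoints of these neighbours lay 9.16 kb apart in replicate 1 and 9.11 kb in replicate 2, and the second was the higher in both. The highest peak of the window was not shared. It was a replicate 1 peak of 969 at 22153247 to 22153924, next to another of 601 at 22144484 to 22144947, and the nearest replicate 2 peak was 45.2 kb and 36.3 kb away from them. Of the replicate 1 peaks that scored as high as 969 or higher, 38.2% likewise had no replicate 2 peak over them. Replicate 2 alone had a peak of 416 at 22108059 to 22108689.

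The Igf2bp3 window had 1 region in both replicates among its 4 regions, again beside 31.7% of all regions. Replicate 1 gave it as 2 peaks on chromosome 6, at 49046326 to 49046858 with a score of 229 and at 49046879 to 49047517 with a score of 420.3, only 20 bp apart. Replicate 2 gave a single peak over both, at 49046332 to 49047493, 1162 bp wide with a score of 317. Of the 9042 replicate 2 peaks with a partner, 174 or 1.92% covered 2 or more replicate 1 peaks in this way. The highest score in this window was again of a peak in 1 list, 717 in replicate 2 at 49060988 to 49061498, with the nearest replicate 1 peak 14.0 kb away. Of the replicate 2 peaks that scored as high or higher, 17.8% had no partner. The other 2 peaks of replicate 1 scored 223 at 49011609 to 49012048 and 317 at 49149089 to 49149571.

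The Igf2bp1 window had no peak in both replicates. Its 1 peak, of replicate 2, lay on chromosome 11 at 95895381 to 95895963, 4.33 kb from the upper end of the window. The score was 252, a value that 20.1% of that list did not exceed, and the nearest replicate 1 peak was 31.0 kb away, outside the window. Of the replicate 2 peaks that scored as high or higher, 38.9% likewise had no partner, so a single unshared peak is not unusual.

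Over all windows, 9 of 17 replicate 1 peaks had a partner in the other list, or 52.9% (95% Wilson interval 31.0 to 73.8%), beside 42.7% of the whole list. In replicate 2 it was 8 of 14, or 57.1% (32.6 to 78.6%), beside 56.0%. Both intervals hold the share of the whole list, and they cover counting error only. They treat peaks as independent, although 5 partnered peaks of each replicate lie in the 1 run at Hmga2, so they are no test. Of the 22 regions, 36.4% were in both lists, against 31.7% of all regions. The median score of the window peaks was 420.3 in replicate 1 and 421 in replicate 2, against 417 and 394 in the whole lists. Peak widths had a median of 566 bp and 657 bp in the windows, against 538 bp and 613 bp. Pooled over the windows, median score and width were thus near those of the whole lists, and the peaks were too few to compare sharing. At Hmga2 alone the median score was 458 over 9 peaks of replicate 1 and 521 over 8 peaks of replicate 2. In the Igf2bp windows it was 368 over 8 peaks of replicate 1 and 421 over 6 peaks of replicate 2. The share of peaks above the median of their whole list did not set Hmga2 apart. It was 5 of 9 and 4 of 8 at Hmga2, and 4 of 8 and 4 of 6 in the Igf2bp windows. Within 10 kb, 12 of 17 replicate 1 peaks and 10 of 14 replicate 2 peaks had another peak of their list, beside 47.2% and 42.9% of the whole lists. In replicate 2 this count came mostly from Hmga2, with 8 of 8 peaks, while the Igf2bp windows had 2 of 6. In replicate 1 it was 6 of 9 at Hmga2 and 6 of 8 in the Igf2bp windows.

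**Figure D4:**
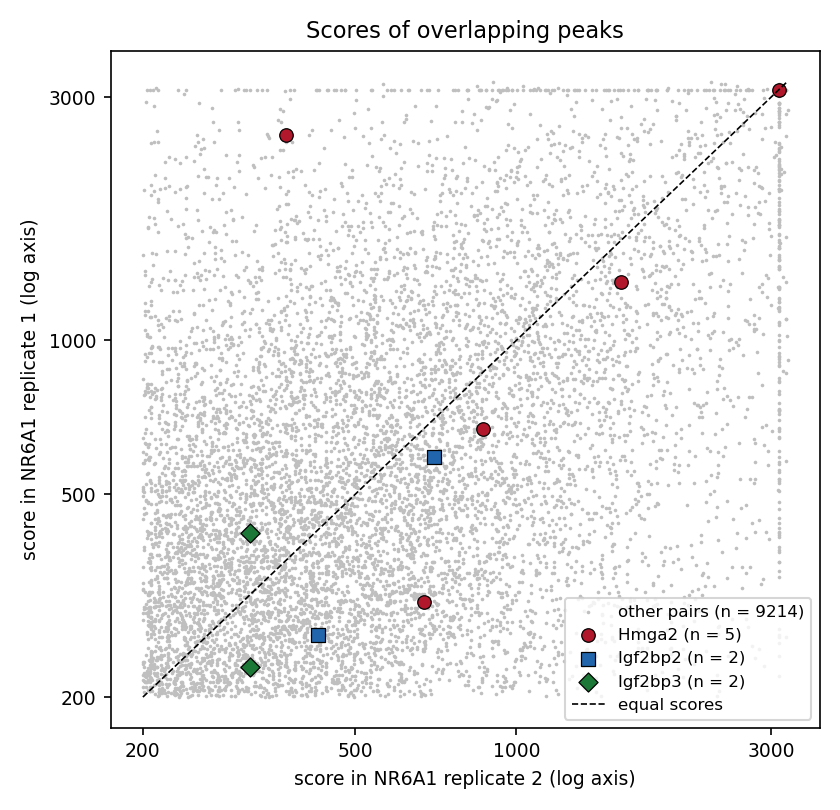
Authors' score of each overlapping pair of peaks, in replicate 2 (x axis) and replicate 1 (y axis), both on log axes, with the dashed line at equal scores. Grey points are the 9214 other pairs and coloured symbols the 9 pairs of the Hmga2, Igf2bp2 and Igf2bp3 windows, of which 7 were within 2-fold of each other, beside 65.4% of all pairs; the pair tied at 3100 counts among the 7.

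Among the 9 pairs of the windows the higher score was a median of 1.32-fold the lower, against 1.62-fold over all pairs. The 9 count the single shared replicate 2 peak at Igf2bp3 in 2 pairs. They also include the pair tied at 3100, whose ratio of 1 need not mean equal strength. The pairs beyond 2-fold were both at Hmga2, the fourth peak of the run described above and the second, whose replicate 1 over replicate 2 ratio was 0.459. The replicate 2 score was the higher in 6 of 9 pairs, beside 49.8% of all pairs.

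Promoter sequence from RefSeq (GRCm38.p6, 250 bases before to 50 after the start) was matched for Hmga2, Igf2bp2 and Igf2bp3. Igf2bp1 was not among the promoters matched. None of the 3 promoters held AGGTCA on either strand, which 16.3% of 32851 mouse promoters did, nor the extended TCAAGGTCA, which contains that half-site and was in 0.423%. This says only that these letters are not in those 300 bases. Whether a peak lies over any of these promoters was not analysed here.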

How the data were processed

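The 2 deposited peak lists of the NR6A1 libraries were used, 1 list per replicate, with no pooling. The authors' deposited score is 1 value per peak. For its scale, and for the control library and threshold of peak calling, the sources used here give nothing. The submitters' processing notes name Bowtie 0.12.7, MACS and build mm9, with no roles. Per the labels' protocols, cells were fixed for 10 min and 5 µg of antibody was used. Positions were written with the first base as 1. An overlap of at least 1 bp made peaks of the lists partners, and partners were merged into regions. Python 3.11.15, numpy 2.4.6, pandas 2.3.3 and scipy 1.17.1 were used, with mm9 chromosome lengths from GenomeInfoDb 1.38.1 (R 4.3.3). The overlap code was tested on simulated lists and against bedtools 2.31.1. Named items were all peaks in the windows and the nearest peak outside on either side. Members and lists were chosen with earlier results of these data known. No test was run, since no vector list was used. A list of other let-7 targets needed an mm9 annotation and was not analysed here. The alternatives were other partner definitions, shorter lists, assignment by any overlap, wider windows and the chromosome as background.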

Additional observations from a re-analysis of the deposited data

How the results depend on the processing

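Other settings gave 76 values, of which 61 kept within a set limit and 15 moved. The limit was 1.5-fold for counts, scores and densities, and the Wilson interval for shares. Some of the 61 could not move. Replicate 2 had the shorter list, so lists of equal length left its peak counts unchanged by construction. Likewise, the 0 values of Igf2bp1 could not rise with stricter partner definitions or shorter lists. Restriction to the upper 50% of scores left 5 peaks at Hmga2 in replicate 1 and 4 in replicate 2, 1 at Igf2bp3 in each replicate and 0 at Igf2bp1 in replicate 2, and 3 regions in both lists at Hmga2, 1 at Igf2bp2 and 0 at Igf2bp3; it shortens the lists by construction. With lists of equal length, Igf2bp3 had 2 peaks in replicate 1 and Igf2bp2 1 region in both lists. With midpoints within 100 bp, Igf2bp3 had 0 regions in both lists. Windows widened by 50 kb gave Igf2bp1 1 peak in replicate 1, and 3 in replicate 2 that scored up to 433. Against chromosome 10 instead of the genome, the density of Hmga2 in replicate 1 was 3.35-fold. Each replicate alone, an alternative chosen after seeing the data, gave 8 to 9 regions at Hmga2, 0 to 1 at Igf2bp1, 3 to 4 at Igf2bp2 and 2 to 4 at Igf2bp3. No paired analysis was possible because values of the vector libraries were not analysed here. Read depth is unknown, so a missing peak may be a weak one.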

Other observations

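At Hmga2 the nearest peaks outside the window included some of 1000 or more, a score that 15.9% and 14.0% of the whole lists reached. Replicate 2 had a peak of 1082 on chromosome 10 at 119745697 to 119746336, 3.98 kb below the window, where replicate 1 had no partner. The nearest replicate 1 peak on that side was one of 833 at 119703394 to 119704038, 46.3 kb from the window. Above the window both replicates had a peak, 59.7 kb from it in each. It scored 1501 in replicate 1 at 120019367 to 120020103 and 1052 in replicate 2 at 120019273 to 120020093. At Igf2bp1 the nearest peak below the window scored 769.7 at 81.4 kb in replicate 1 and 222 at 16.4 kb in replicate 2. The nearest peaks above the window were not shared, 236 in replicate 1 at 26.7 kb from the window and 433 in replicate 2 at 36.8 kb. At Igf2bp3 the nearest peak below the window was 456 kb away in replicate 1 and 209 kb away in replicate 2, and the nearest above it 35.1 kb away with a score of 200.2 in replicate 1 and 69.3 kb away with a score of 206 in replicate 2. Around Igf2bp2, the nearest peak below the window scored 629 at 64.7 kb in replicate 1 and 468 at 21.5 kb in replicate 2, and the nearest above it 224 at 39.2 kb in replicate 1 and 405 at 61.8 kb in replicate 2.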
